A study of Arabidopsis thaliana with 8 samples.

Results

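Primary roots of Arabidopsis thaliana were compared between 4-day-old seedlings whose shoots were lit and seedlings of the same age kept in the dark. The comparison used 4 of the 8 RNA-seq libraries of the series, 2 with lit shoots and 2 dark, each made from its own biological sample, a pool of about 70 seedlings. Loci entered it with at least 10 counts in 2 of these 4 libraries, which kept 20372 of the 33602 loci in the deposited count table. All plants were the wild-type accession Col-0, with no transgene or mutant, and grew at 21 °C on a sucrose-free Murashige-Skoog medium. In the lit-shoot group a modified D-Root device, a plate holder that shades the roots, kept light on the shoot alone, in days of 16 h at 130 µmol followed by 8 h dark. In the dark group whole plates were wrapped in foil. The RNA was total RNA depleted of ribosomal RNA, from whole primary roots of pooled seedlings.

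A shaded root receives no direct light under such a device, but its shoot photosynthesises and exports sucrose, hormones and mobile proteins through the phloem. The bZIP factor HY5 is known as a shoot-to-root light signal that acts on nitrate uptake. A dark seedling on medium without sugar lives on seed reserves, and carbon starvation is known to induce genes for the breakdown of amino acids, fatty acids and chlorophyll. Flavonols, made from phenylalanine, accumulate in Arabidopsis roots and are known to depend on light reaching the plant.

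The 4 library totals were 28839293 and 27144399 counts with lit shoots, and 26457216 and 25326045 counts in the dark. Levels below are CPM, counts scaled to a common size by the library total times its scaling factor, for library 1 and then library 2 of a group. They are not corrected for gene length, so levels of different genes are not compared. Mitochondrion-encoded loci took 4.53% and 3.89% of counts with lit shoots, against 8.68% and 10.5% in the dark, and plastid-encoded loci took 1.71% and 1.31%, against 0.97% and 0.911%. Most of the mitochondrial counts came from ATMG00020 and ATMG01390, given below, and the part of ribosomal RNA depletion in them was not tested. Of 18868 loci at 1 CPM or more, 116 stood at least 2-fold apart between the lit-shoot libraries and 419 between the dark libraries. Root identity was checked with 18 markers, all of which passed the count filter (6 rose and 3 fell). They summed to 11300 and 10200 CPM with lit shoots, against 3600 and 4270 CPM in the dark, most of it PYK10. The other 17 summed to 1060 and 973 CPM with lit shoots, against 1440 and 1660 CPM in the dark, and without PHO1 as well the remaining 16 summed to 663 and 602 CPM, against 435 and 567 CPM in the dark. Of 18 shoot markers 5 passed the filter, at a sum of 51.9 and 48.6 CPM with lit shoots, against 103 and 93.8 CPM in the dark. Most of that sum and of its difference was KAN1, with 32.5 and 30 CPM, against 77.1 and 78 CPM in the dark. STM, MUTE, FAMA, EPF1 and TGG2 had no count in any of the 4 libraries. The 16 seed and embryo markers summed to 0.643 and 0.635 CPM with lit shoots, against 2.22 and 1.45 CPM in the dark. The part of these marker differences in the results below was not tested. In bulk root RNA, fewer cells of a type and less RNA per cell cannot be told apart.

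Many root transcripts changed in level with lit shoots. Of 20372 loci tested with edgeR's quasi-likelihood test, 12136 (59.6%) were called at a Benjamini-Hochberg adjusted p below 0.05. Of these, 5907 loci (29% of those tested) rose with lit shoots and 6229 (30.6%) fell. The median log2 fold change over all loci was -0.01 and the quartiles were -0.58 and 0.71. At 2-fold or more, 3458 loci (17%) rose and 2466 (12.1%) fell, and at 16-fold or more 316 rose and 126 fell. Rises thus outnumbered falls at high folds. Among abundant transcripts the order was turned round. Of the 50 loci above a mean of 1000 CPM, 11 rose and 32 fell, whereas of the 1504 loci below 1 CPM, 375 rose and 184 fell. At that low level a locus can pass the count filter through its higher group alone. The lit-shoot libraries were the deeper ones, so the filter can favour rises there, and its part in that excess was not tested. The split depends on the scaling: 48.7% of calls were rises with TMM scaling factors, which centre most loci near no change, and 66.4% with library totals alone, which moved the median of all loci to 0.26. Without the second lit-shoot library 8602 loci were called, of which 3865 fell. The groups did not overlap for 17019 loci (83.5%), of which 8441 (41.4%) were higher and 8578 (42.1%) lower with lit shoots. Among the 12136 called loci they did not overlap for 12135, so a lack of overlap in a called gene adds nothing to its call. The p-values measure only the spread between 2 samples per group. Below, a gene is said to rise or fall with lit shoots relative to the dark where it passed this test, and a list's median is a log2 fold change to be read beside the -0.01 of all loci. A value after ± is an approximate standard error, the absolute log2 fold change divided by the square root of edgeR's F statistic. It is too small for some genes with few counts in a group, such as TT4 below. Counts of rises and falls in a list are to be read beside the 29% and 30.6% of all loci.

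The 8 largest gains in CPM among called loci without overlap began with PYK10. PYK10, the root beta-glucosidase of endoplasmic reticulum bodies, had 10200 and 9250 CPM with lit shoots, against 2160 and 2620 CPM in the dark (log2 fold change 2.03 ± 0.26 SE, edgeR adjusted p = 0.00031). ATMS1, a methionine synthase, had 2420 and 2580 CPM, against 723 and 748 CPM in the dark. FBA8, a cytosolic aldolase of glycolysis, had 1150 and 1220 CPM with lit shoots, against 280 and 309 CPM in the dark. The rule that picked these genes required both lit-shoot libraries to lie above both dark libraries. GSR2, described with nitrogen below, was among the 8 too. The mitochondrial ADP/ATP carrier gene AAC1 rose by 1.2 ± 0.14 on the log2 scale, and the locus AT5G60390 by 1.61 ± 0.17. The plastid locus ATCG00020 had 4000 and 2100 CPM with lit shoots, against 373 and 306 CPM in the dark, so that the lit-shoot libraries differed widely from each other. HA2, a plasma membrane proton pump, had 3190 and 3330 CPM with lit shoots, against 2200 and 2540 CPM in the dark (0.46 ± 0.16, edgeR adjusted p = 0.036). Its call ended without any 1 of 6 libraries, the 4 of this comparison (edgeR adjusted p = 0.068, 0.094, 0.2 and 0.059 without the first and second lit-shoot and the first and second dark library) and the 7-day dark libraries (0.051 for each).

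Among the largest losses in CPM was DIN2, a beta-glucosidase gene known as dark-inducible. It had 28.9 and 21.1 CPM with lit shoots, against 2460 and 1880 CPM in the dark (log2 fold change -6.44 ± 0.47, edgeR adjusted p = 5.5e-05). The cytochrome P450 gene CYP81D11 had 640 and 569 CPM, against 2840 and 2550 CPM in the dark. DJ1A, of the DJ-1 protein family, changed by -1.25 ± 0.14 and the locus AT5G40450 by -2.07 ± 0.18. Mitochondrion-encoded loci summed to a mean of 38700 CPM with lit shoots, against 106000 CPM in the dark, most of it ATMG00020 and ATMG01390. Among the 62 tested, 15 rose and 19 fell (median -0.11), beside 29% and 30.6% of all loci. The part of ribosomal RNA depletion in these levels was not tested. The mitochondrial locus ATMG00020 held 23900 and 19300 CPM with lit shoots, against 60800 and 78900 CPM in the dark (log2 fold change -1.69 ± 0.54, edgeR adjusted p = 0.028). In edgeR's test across all loci that call ended without the second dark library (adjusted p = 0.092), without the first lit-shoot library (0.088), without the second (0.14) and without a count filter (0.13). ATMG01390, also mitochondrial, had 8190 and 6620 CPM with lit shoots, against 17700 and 23400 CPM in the dark (-1.47 ± 0.45, edgeR adjusted p = 0.025), and its call ended under the same 4 alternatives (0.091, 0.076, 0.14 and 0.12). The mitochondrial locus ATMG01360 changed by -0.65 ± 0.16 (edgeR adjusted p = 0.0087), a call that ended with library totals alone (0.064), without the first dark library (0.08) and without the second lit-shoot library (0.1).

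Flavonol pathway genes were abundant with lit shoots and close to absent in the dark. All 9 tested genes of the early flavonoid and flavonol list rose, with a median log2 fold change of 7.58 against -0.01 over all loci. Members such as TT4, TT5 and F3H had under 10 counts in each dark library and passed the count filter only through the lit-shoot libraries. The filter thus set part of this count and median. Summed, these genes held 653 and 877 CPM with lit shoots, against 2.97 and 2.9 CPM in the dark. TT4, chalcone synthase, which makes the flavonoid skeleton, is AT5G13930 on the plus strand of chromosome 5 (4488476 to 4490264, TAIR10.1). TT4 had 317 and 439 CPM with lit shoots, against 0.167 and 0.0878 CPM in the dark (log2 fold change 11.47 ± 0.43, edgeR adjusted p = 5.3e-06). Both lit-shoot libraries lay far above both dark libraries.

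TT5, chalcone isomerase, had 31 and 44.7 CPM with lit shoots, against 0.0418 and 0 CPM in the dark, where 1 count stood behind the dark level. The 95% counting interval of its ratio, for counting error only, ran from 316 to 69600. F3H, flavanone 3-hydroxylase, had 75.2 and 97.5 CPM with lit shoots, against 0.125 and 0 CPM in the dark, a ratio with a 95% counting interval of 459 to 6500. F3H overlaps a locus on the other strand over 94.5% of its length, and with the strand used in counting unknown its reads cannot be assigned with certainty. MYB12, the factor known to activate these genes in roots, had 15.6 and 14.7 CPM with lit shoots, against 0 and 0.176 CPM in the dark (log2 fold change 7.39 ± 0.57, edgeR adjusted p = 4.2e-05). Its relatives MYB11 and MYB111 did not pass the filter, MYB111 with no count in any of the 4 libraries. In 7-day roots the log2 fold change was 11.18 for TT4 and 7.47 for MYB12.

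The promoter of TT4 is shown because this gene had the largest log2 fold change of the list. The 250 bases before the annotated start (chr5:4488226-4488475, plus strand, RefSeq TAIR10.1, 5′ to 3′) hold a G-box, the palindrome CACGTG that light-regulated bZIP and bHLH factors can bind, and an evening element, AAATATCT, known from clock-regulated promoters. Capitals mark both.
TT4 promoter: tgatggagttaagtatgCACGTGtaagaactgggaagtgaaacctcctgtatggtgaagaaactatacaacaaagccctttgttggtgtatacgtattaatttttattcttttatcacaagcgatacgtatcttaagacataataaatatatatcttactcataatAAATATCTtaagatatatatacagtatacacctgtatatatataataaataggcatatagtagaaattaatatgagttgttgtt
Of 9 early flavonoid promoters, 44.4% held a G-box on either strand, against 7.25% of the promoters of all tested nuclear protein-coding loci. A match describes the letters and does not show that a factor binds there.

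**Figure D1:**
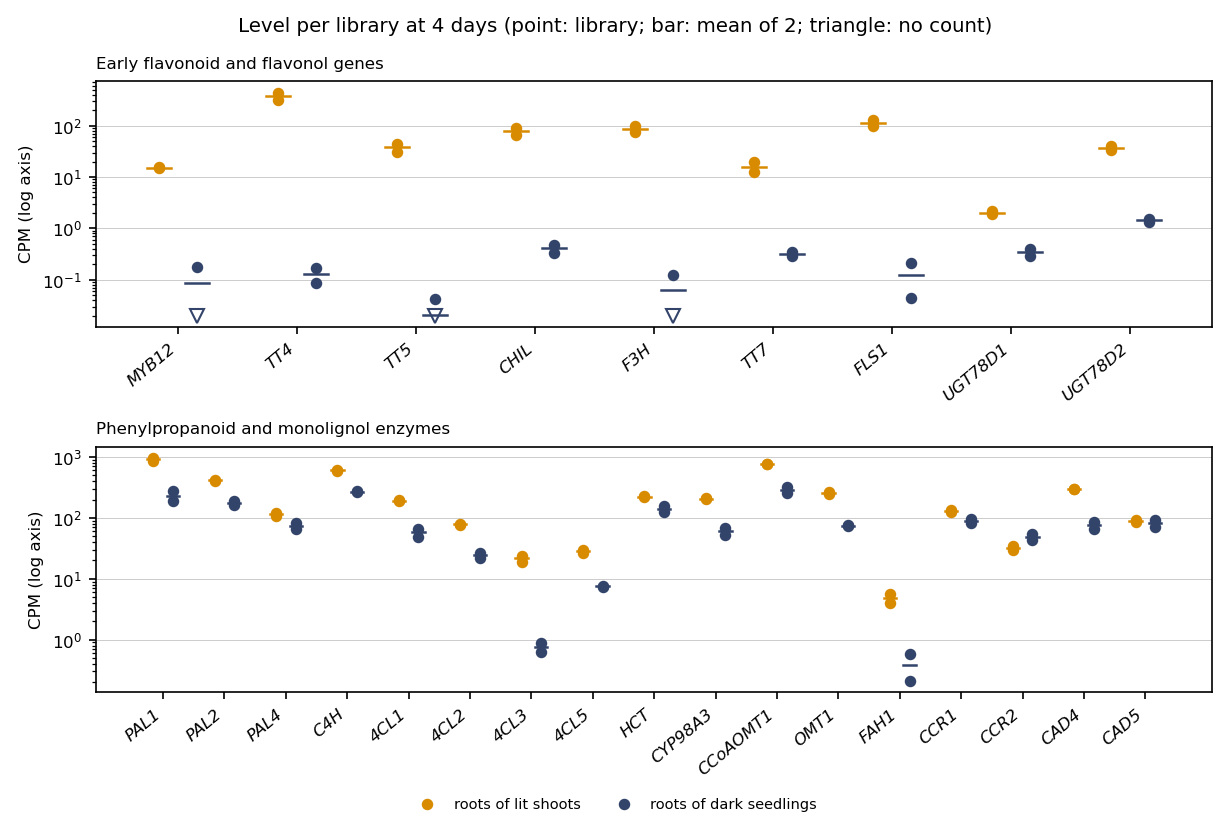
Levels in CPM (log axis) of the 9 tested early flavonoid genes (upper panel) and 17 tested phenylpropanoid genes (lower panel) in each library. Each point is a library, each bar the mean of 2, and a triangle marks a library with no count. The early flavonoid genes lie far apart between roots of lit shoots (left of each pair) and dark roots, the phenylpropanoid genes less so, and CAD5 overlaps.

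Most other phenylpropanoid enzymes rose too. Of 17 tested phenylpropanoid and monolignol enzymes, 15 rose and none fell (median log2 fold change 1.69). PAL1, phenylalanine ammonia-lyase at the entry of the pathway, had 858 and 961 CPM with lit shoots, against 188 and 272 CPM in the dark (log2 fold change 1.98 ± 0.18, edgeR adjusted p = 6e-05). 4CL3, the CoA ligase tied to flavonoid supply, had 19.1 and 23.9 CPM, against 0.878 and 0.615 CPM in the dark (4.84 ± 0.4). FAH1, ferulate 5-hydroxylase of sinapate synthesis, had 4.02 and 5.65 CPM, against 0.209 and 0.571 CPM in the dark. In these 3 genes the groups did not overlap, as in nearly all called loci. CAD5, a cinnamyl alcohol dehydrogenase, had 84.6 and 92.9 CPM with lit shoots, against 93.4 and 69.9 CPM in the dark, which did not pass (edgeR adjusted p = 0.54). UGT84A2, the sinapate glucosyltransferase, had the largest rise of its family, with 45.8 and 55.9 CPM, against 0.251 and 0.307 CPM in the dark (7.49 ± 0.24, edgeR adjusted p = 2.9e-06). The 49 tested UDP-glycosyltransferases as a family rose in 18 cases and fell in 20.

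Of 15 members of the later anthocyanin list 5 passed the filter. DFR, dihydroflavonol reductase, and the MYB activators PAP1, PAP2, MYB113 and MYB114 had no count in any of the 4 libraries. Of the 5 tested, the bHLH genes EGL3 and GL3 rose by 1.15 ± 0.32 and 1.05 ± 0.34 and the small MYB gene CPC fell by 0.67 ± 0.24. Those 3 edgeR calls ended when a library was left out, at an adjusted p of up to 0.076 for EGL3 without the second dark library, 0.11 for GL3 without the first lit-shoot library and 0.24 for CPC without the second. TTG1, the WD40 partner of these factors, did not pass (-0.22, edgeR adjusted p = 0.1).

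More photoreceptor genes fell than rose. Of 14 photoreceptor genes 8 fell and 2 rose (median -0.42). The red and far-red receptor gene PHYA had 201 and 191 CPM with lit shoots, against 333 and 335 CPM in the dark (log2 fold change -0.77 ± 0.11, edgeR adjusted p = 0.00043). PHYE, a phytochrome of the same family, had 19.6 and 19.2 CPM, against 38.1 and 34.8 CPM in the dark, and PHYB did not pass (-0.19, edgeR adjusted p = 0.2). CRY3, a cryptochrome of the DASH type that repairs DNA in organelles, went the other way, with 35.3 and 39.2 CPM, against 5.56 and 6.15 CPM in the dark (2.67 ± 0.43). With library totals alone 4 receptor genes fell, and without the second lit-shoot library 3 did.

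Of 16 tested members of the COP1-SPA and HY5-BBX list 8 rose and 1 fell (median 0.46). HYH, the closest relative of HY5, had 19 and 21.9 CPM with lit shoots, against 2.22 and 2.41 CPM in the dark (log2 fold change 3.14 ± 0.59, edgeR adjusted p = 0.0037). The B-box factor gene BBX20 had 22.2 and 24.4 CPM, against 1.51 and 4.52 CPM in the dark, and STH, another B-box gene, rose by 3.8 ± 0.56. HY5 itself, named here after its values were seen, had 29.2 and 27.2 CPM with lit shoots, against 53.6 and 33.6 CPM in the dark, and was not called. SPA2, a partner of the ubiquitin ligase COP1, fell by 0.91 ± 0.11. Of 9 phytochrome-interacting factors and relatives 1 rose and 2 fell, among them SPT (-1.27 ± 0.13), a bHLH factor that restrains organ growth.

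Most genes of amino acid breakdown fell with lit shoots. Of 15 genes for the breakdown of branched-chain amino acids and lysine, 13 fell and none rose, with a median log2 fold change of -2.24. Summed, they held 838 and 660 CPM with lit shoots, against 5010 and 5060 CPM in the dark. BCAT2, a branched-chain aminotransferase, had 28.5 and 12.1 CPM with lit shoots, against 371 and 383 CPM in the dark (log2 fold change -4.22 ± 0.41, edgeR adjusted p = 0.00021). MGL, methionine gamma-lyase, had 80 and 53.2 CPM, against 806 and 793 CPM in the dark, and BCE2, a subunit of the branched-chain keto acid dehydrogenase, had 71.8 and 58.2 CPM, against 581 and 617 CPM in the dark. The lit-shoot libraries spread more than the dark ones in these genes and never reached them. ALD1, an aminotransferase of pipecolate synthesis that uses lysine, overlapped between groups at 18.6 and 10.7 CPM with lit shoots, against 9.03 and 21.2 CPM in the dark (edgeR adjusted p = 0.94).

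Most genes of fat breakdown fell as well. Of 20 tested beta-oxidation and glyoxylate cycle genes 15 fell and 2 rose (median -0.69). ICL, isocitrate lyase of the glyoxylate cycle, had 55.8 and 38.8 CPM with lit shoots, against 1000 and 456 CPM in the dark (log2 fold change -3.95 ± 0.39, edgeR adjusted p = 0.00016). PCK1, which carries carbon from this cycle towards sugar, had 295 and 260 CPM, against 863 and 816 CPM in the dark. The dark libraries stood well apart in ICL, yet both lay above the lit-shoot ones. KAT5, a 3-ketoacyl-CoA thiolase, rose against the rest of its list, with 17.8 and 27.2 CPM, against 0.92 and 0.834 CPM in the dark (4.67 ± 0.51, edgeR adjusted p = 0.00025).

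Most autophagy genes, which recycle cell contents, fell. Of 19 autophagy genes 16 fell and 1 rose (median -0.57). ATG8B, a ubiquitin-like protein that coats autophagosome membranes, had 16.8 and 16.4 CPM with lit shoots, against 88.4 and 65.3 CPM in the dark (log2 fold change -2.21 ± 0.18, edgeR adjusted p = 4.8e-05). ATG18F, a phosphoinositide-binding autophagy protein, fell by 1.3 ± 0.17. With library totals alone 10 autophagy genes fell, and without the second lit-shoot library 8. Of 9 chlorophyll breakdown genes 5 fell. NYC1, chlorophyll b reductase, had 14.4 and 10.5 CPM with lit shoots, against 107 and 79.8 CPM in the dark (-2.91 ± 0.26).

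Trehalose genes belong to sugar signalling. TRE1, the trehalase that splits trehalose, had 1.74 and 1.77 CPM with lit shoots, against 26 and 21.4 CPM in the dark (log2 fold change -3.76 ± 0.17, edgeR adjusted p = 6.8e-06). TPS1, the catalytically active trehalose-6-phosphate synthase, had 49.5 and 50.3 CPM, against 3.97 and 7.82 CPM in the dark (3.08 ± 0.27). TPS8 and TPS11, class II members of the same family, fell by 1.38 ± 0.17 and 1.6 ± 0.12. In the whole list of 16 tested synthases and phosphatases 5 rose and 6 fell, shares near those of all loci. Of 7 tested SnRK1 kinase and bZIP genes 6 fell, led by BZIP9 (-1.21 ± 0.17), and 3 did with library totals alone or without either lit-shoot library or the second dark library. The bZIP genes BZIP1, GBF5, GBF6, BZIP44 and BZIP53 were listed at 0 in all 4 libraries. Beside each, at most 3 locus numbers away, the table holds a further locus that is not in the reference annotation, such as AT4G34588 beside GBF6, also at 0. The trehalose phosphatase genes TPPF and TPPG were listed in the same way, so no level was read from these zeros.

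Of 15 starch synthesis genes 6 rose and 1 fell. ADG1 and APL3, the small subunit and a large subunit of ADP-glucose pyrophosphorylase, rose by 1.85 ± 0.12 and 2.22 ± 0.27. ADG1 had 50.4 and 52 CPM with lit shoots, against 15.2 and 13.2 CPM in the dark. Among 18 tested breakdown genes 6 rose and 4 fell, with PHS1, the plastid phosphorylase, at 0.93 ± 0.14 and BAM4, a beta-amylase-like protein, at -1 ± 0.12. Over all loci 29% rose and 30.6% fell. Of the breakdown genes 1 fell with library totals alone or without the second lit-shoot library, and 2 without the first dark library.

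**Figure D2:**
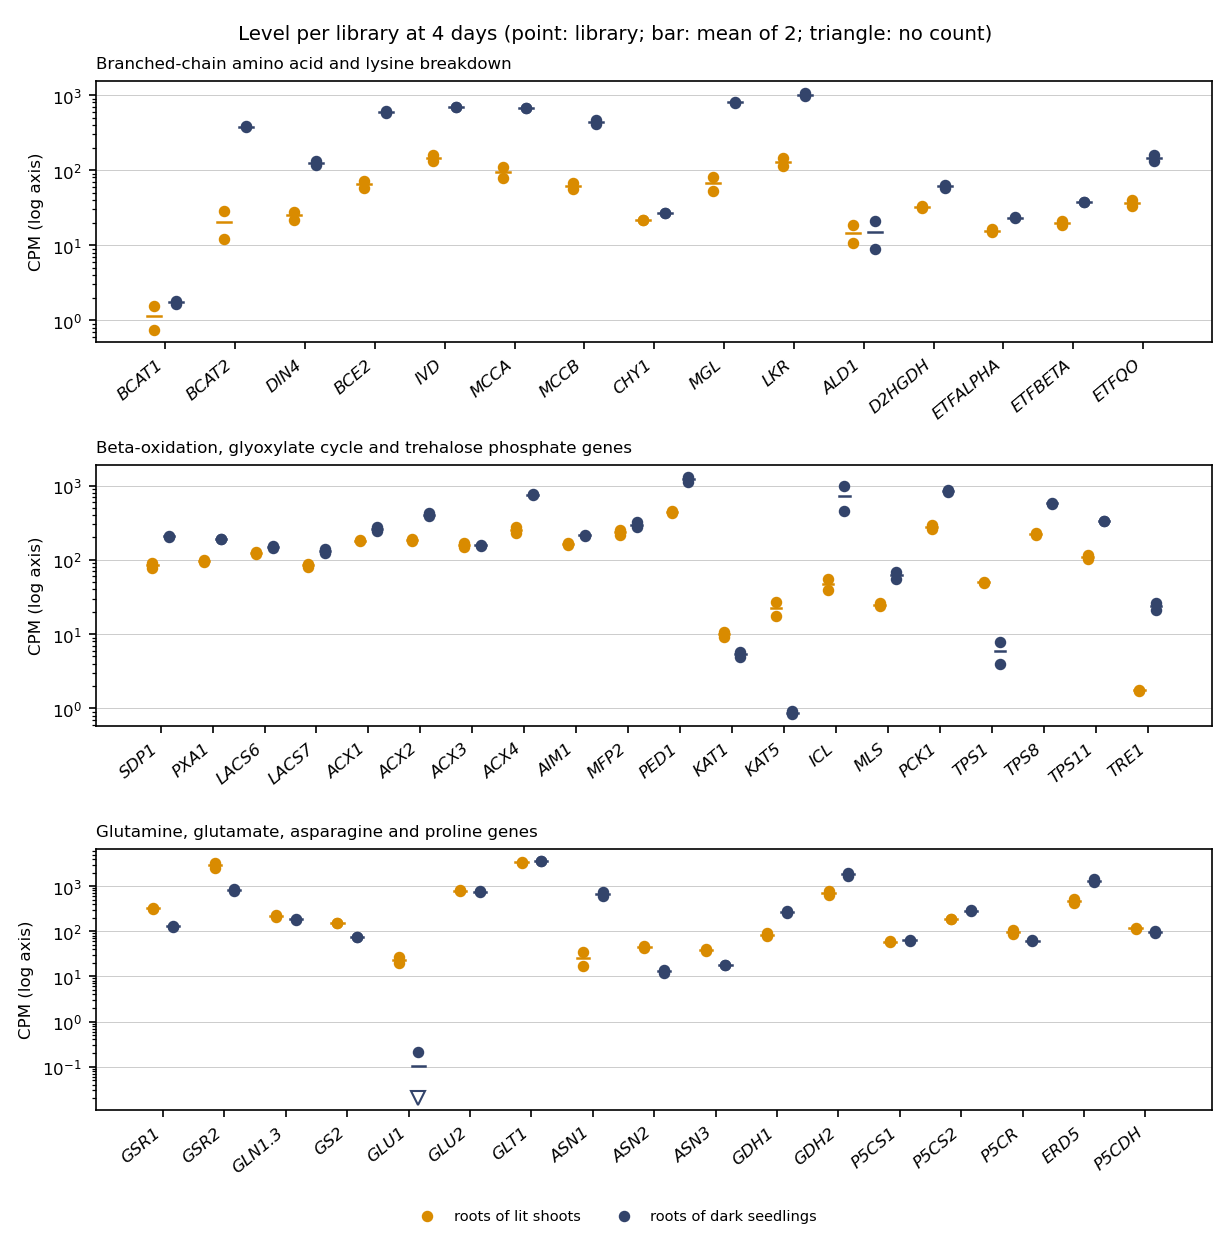
Levels in CPM (log axis) per library for genes of amino acid breakdown (top), beta-oxidation, glyoxylate cycle and trehalose phosphate (middle) and glutamine, glutamate, asparagine and proline (bottom), with roots of lit shoots left of dark roots in each pair. Each point is a library, each bar the mean of 2, and a triangle marks no count. Most points of the top panel are lower with lit shoots, whereas KAT5, TPS1, GLU1, ASN2 and GSR2 are higher.

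The asparagine synthetase genes ASN1 and ASN2 changed in opposite directions. ASN1, the asparagine synthetase known from darkened plants, had 34.7 and 17 CPM with lit shoots, against 731 and 589 CPM in the dark (log2 fold change -4.67 ± 0.58, edgeR adjusted p = 0.00075). ASN2, its relative, had 42.9 and 46.1 CPM with lit shoots, against 11.9 and 13.9 CPM in the dark (1.78 ± 0.22, edgeR adjusted p = 0.00024). So the pair moved in opposite directions. ASN1 lies on the minus strand of chromosome 3 (17437840 to 17441431). Its promoter is shown because ASN1 had the lowest log2 fold change of the ammonium, glutamine and asparagine list (chr3:17441432-17441681, minus strand, TAIR10.1, 5′ to 3′). Capitals mark a G-box, an element known from sugar-regulated promoters (TATCCA), matches to the I-box core known from light-regulated promoters (GATAAG, found on both strands), and a telo-box, which is spelled out with NOP56 below.
ASN1 promoter: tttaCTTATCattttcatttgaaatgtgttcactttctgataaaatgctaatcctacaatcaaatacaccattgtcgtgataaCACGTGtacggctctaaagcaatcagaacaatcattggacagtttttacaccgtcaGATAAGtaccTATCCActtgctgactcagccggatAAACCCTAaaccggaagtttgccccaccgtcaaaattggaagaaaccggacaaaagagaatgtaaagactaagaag
Over all tested promoters, read on both strands, the sugar element occurred in 14% and the I-box core in 12.1%.

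GSR2, a cytosolic glutamine synthetase, had 2580 and 3300 CPM with lit shoots, against 850 and 797 CPM in the dark (log2 fold change 1.83 ± 0.22, edgeR adjusted p = 0.00019). GLU1, ferredoxin-dependent glutamate synthase, had 26.9 and 20.2 CPM, against 0.209 and 0 CPM in the dark (7.72 ± 0.5). The groups did not overlap in either gene, as in nearly all called loci. GDH1, a glutamate dehydrogenase that releases ammonium, had 90.5 and 78 CPM with lit shoots, against 282 and 248 CPM in the dark, and its relative GDH2 had 761 and 635 CPM, against 1680 and 1980 CPM in the dark. GLT1, the NADH-dependent glutamate synthase, had 3240 and 3450 CPM, against 3650 and 3630 CPM in the dark, and did not pass (edgeR adjusted p = 0.53). Of the 23 tested genes of the list 8 rose and 7 fell, which is near the 29% and 30.6% of all loci, and 13 rose with library totals alone.

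Nitrate genes gave 5 rises and 7 falls among 18 tested, not far from the 29% and 30.6% of all loci. NRT2.1, the main high-affinity uptake transporter, had 11.3 and 14.5 CPM with lit shoots, against 1.71 and 0.615 CPM in the dark (log2 fold change 3.45 ± 0.61, edgeR adjusted p = 0.0021). NRT1.8, which takes nitrate out of the xylem, had 1.48 and 1.2 CPM, against 11.5 and 8.3 CPM in the dark (-2.88 ± 0.34). NRT1.5, which loads the xylem, had 1080 and 956 CPM, against 2770 and 2920 CPM in the dark (-1.48 ± 0.4, edgeR adjusted p = 0.015), a call that ended without the first or second lit-shoot library or without a count filter (adjusted p = 0.056, 0.086 and 0.078). The nitrate reductase genes NIA1 and NIA2 did not pass (0.05 ± 0.19 and -0.42 ± 0.18, edgeR adjusted p = 0.83 and 0.068). Without the second lit-shoot library 3 nitrate genes rose and 3 fell, and without the first dark library 3 rose.

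PHO1, the phosphate exporter of the stele, had 396 and 370 CPM with lit shoots, against 1010 and 1090 CPM in the dark (log2 fold change -1.45 ± 0.24, edgeR adjusted p = 0.001). PHO2, the ubiquitin-conjugating enzyme that limits phosphate transporters, had 369 and 305 CPM, against 978 and 872 CPM in the dark. SKOR, the potassium channel that releases potassium into the xylem, had 25.1 and 21.2 CPM, against 219 and 189 CPM in the dark (-3.14 ± 0.36, edgeR adjusted p = 0.00042). All 3 genes separated the groups, as nearly all called loci did. Of 19 tested phosphate genes 6 rose and 9 fell, and of 15 potassium and sodium genes 3 rose and 9 fell. Without the second lit-shoot library 5 genes of each list fell. GORK, the outward potassium channel of the epidermis, changed by -1.78 ± 0.21, while KEA3, a plastid potassium and proton exchanger, rose by 4 ± 0.2.

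Of 16 tested sulfate and sulfur deficiency genes 4 rose and 2 fell, and 7 rose in a fit of the 4 libraries alone. SULTR1;3, a sulfate transporter of the phloem, had 2.38 and 2.37 CPM with lit shoots and no count in the dark, at least 37-fold higher against a floor of 3 counts over the dark group. SLIM1, a factor of the sulfur deficiency response, changed by -0.74 ± 0.1. In the iron list 1 of 22 tested genes rose, NAS1, a nicotianamine synthase with close copies (2.68 ± 0.42), and 6 fell. Those falls included PYE (-1.61 ± 0.18), a bHLH factor of iron deficiency, and BTS (-1.17 ± 0.23), a ubiquitin ligase that restrains that response. With library totals alone, or without any 1 of the 4 libraries of this comparison, 3 iron genes fell, and in a fit of those 4 libraries alone 10 fell. Of 23 aquaporin genes 7 rose and 7 fell, which is near the 29% and 30.6% of all loci. NIP1;1, of the nodulin-like subfamily, had 141 and 140 CPM, against 23.6 and 38.1 CPM in the dark, and TIP2;3, a tonoplast member, had 170 and 131 CPM, against 338 and 475 CPM in the dark. Without the second lit-shoot library 3 aquaporins fell.

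Most genes of ribosome assembly rose. Of 17 ribosome biogenesis genes 11 rose and 1 fell (median 0.83). NOP56, a core protein of the box C/D particles that methylate ribosomal RNA, had 140 and 154 CPM with lit shoots, against 28.5 and 34.9 CPM in the dark (log2 fold change 2.21 ± 0.17, edgeR adjusted p = 4.1e-05). FIB2, fibrillarin, the methyltransferase of the same particles, had 47.1 and 54.6 CPM, against 10.2 and 10.4 CPM in the dark (2.3 ± 0.17). NUC-L1, nucleolin, had 253 and 270 CPM, against 79.1 and 89.2 CPM in the dark. The exception, TOR, the growth-controlling kinase placed in this list, had 233 and 217 CPM, against 402 and 402 CPM in the dark (-0.84 ± 0.11).

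NOP56 lies on the minus strand of chromosome 1 (20984273 to 20986952), and its promoter (chr1:20986953-20987202, minus strand, TAIR10.1, 5′ to 3′) is shown as an example that holds both elements discussed here. Capitals mark 3 matches to the site II element, TGGGCC, which TCP factors can bind, and a telo-box, AAACCCTA, both known from promoters of ribosomal protein genes.
NOP56 promoter: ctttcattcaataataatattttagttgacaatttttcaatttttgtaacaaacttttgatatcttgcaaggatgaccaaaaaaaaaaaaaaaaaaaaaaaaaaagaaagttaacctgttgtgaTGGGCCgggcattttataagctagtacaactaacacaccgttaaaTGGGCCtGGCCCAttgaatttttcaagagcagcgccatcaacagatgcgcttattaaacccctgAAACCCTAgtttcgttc
The site II element occurred in 41.2% and the telo-box in 11.8% of the 17 ribosome biogenesis promoters, against 16.3% and 3.52% of all tested promoters, so most promoters of the list lack them. That of FIB2, the gene with the larger rise, held no match to any motif searched. Among promoters of loci that rose at least 2-fold the site II element occurred in 16.6%, and among those that fell at least 2-fold in 9.82%. The share of G-box promoters was 7.25% among 2-fold rises and 10% among 2-fold falls, beside 6.34% of loci not called.

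Small nucleolar RNA (snoRNA) loci, whose products guide the modification of ribosomal RNA, rose in 22 of 48 tested cases and fell in none, with a median log2 fold change of 1.14. Several that rose passed the count filter only through the lit-shoot libraries, such as AT1G03743, with 19 and 25 counts, against 5 and 1 in the dark. The filter thus set part of this count and median of the snoRNA loci. They summed to 96.6 and 98.2 CPM with lit shoots, against 60.8 and 55.3 CPM in the dark. Without the second lit-shoot library 12 rose, and 8 did with a minimum of 50 counts. Their median length was 85.5 bases. Small nuclear RNA (snRNA) loci, of the splicing machinery, summed to 72.8 and 78.6 CPM with lit shoots, against 166 and 176 CPM in the dark; 4 of 9 fell, but 1 with library totals alone, without the second dark library or without either lit-shoot library.

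Most core histone genes rose. Of 18 tested core histone genes 13 rose and 1 fell (median 0.76). HTA6, a histone H2A gene, had 49.4 and 54.4 CPM with lit shoots, against 12.2 and 13.5 CPM in the dark (log2 fold change 2.01 ± 0.28, edgeR adjusted p = 0.00064). The gene that fell, HTA9, encodes the replacement variant H2A.Z and had 81.5 and 75.1 CPM, against 178 and 159 CPM in the dark. Near-identical histone copies may share reads. Of 29 tested DNA methylation and small RNA genes 12 rose and 10 fell, beside 29% and 30.6% of all loci. The rises included enzymes that keep methylation through replication. CMT3, a DNA methyltransferase, had 57.5 and 63.1 CPM, against 17.9 and 20.2 CPM in the dark (1.67 ± 0.12). MET1, another, rose by 1.23 ± 0.14, and the remodeller gene DDM1 by 1.66 ± 0.13. RDR1, an RNA-dependent RNA polymerase of antiviral silencing, had the lowest value, at -1.48 ± 0.14. Among D-type cyclins and cell cycle inhibitors 9 of 22 rose and 4 fell. KRP2, an inhibitor of cyclin-dependent kinases, had 11.3 and 11.5 CPM, against 2.84 and 3.38 CPM in the dark, while its relative KRP1 changed by -0.93 ± 0.19. In 10 of the alternatives run, 2 genes of this list fell.

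Of 34 tested primary wall and wall loosening genes 21 rose and 3 fell (median 1.09). XTH14, a xyloglucan endotransglucosylase, had 57.6 and 69.5 CPM with lit shoots, against 1.09 and 3.07 CPM in the dark (log2 fold change 4.94 ± 0.46, edgeR adjusted p = 0.00016). XTH12 and XTH13, adjacent copies that may share reads, rose by 5.73 ± 0.51 and 4.83 ± 0.7. XTH22, a touch-induced member, had 11.8 and 7.98 CPM, against 243 and 101 CPM in the dark (-4.12 ± 0.6). The root hair and epidermis marker COBL9 rose with them, at 50 and 43.4 CPM, against 1.17 and 6.1 CPM in the dark, and dark library 2 was the higher of the dark pair in both XTH14 and COBL9. The part of hair cells in these rises was not tested.

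Few root patterning genes were called. Of 23 tested stem cell niche and root cap genes 3 rose and 4 fell (median -0.23). PLT3, an AP2 factor of root patterning, had 48.7 and 47.6 CPM with lit shoots, against 111 and 116 CPM in the dark (log2 fold change -1.23 ± 0.14, edgeR adjusted p = 0.00015). SMB, a NAC factor of root cap maturation, had 9.81 and 9.66 CPM, against 19.1 and 18.7 CPM in the dark. SCR, which specifies the endodermis, did not pass (-0.23, edgeR adjusted p = 0.19).

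The auxin lists gave shares of rises and falls not far from the 29% and 30.6% of all loci. Of 18 tested synthesis and inactivation genes 7 rose and 5 fell. YUC9, a flavin monooxygenase of auxin synthesis, had 5.05 and 4.38 CPM with lit shoots, against 0.502 and 0.966 CPM in the dark (log2 fold change 2.68 ± 0.35, edgeR adjusted p = 0.00029). GH3.6, which conjugates auxin to amino acids, had 49.6 and 41.1 CPM, against 11.3 and 14.9 CPM in the dark. NIT2, a nitrilase with adjacent copies, changed by -2.14 ± 0.27. Of 20 tested transport genes 5 rose and 4 fell, and 9 rose with library totals alone. PIN5, an auxin carrier of the endoplasmic reticulum, had 4.47 and 4.98 CPM with lit shoots and no count in the dark, at least 73.5-fold higher, and the influx carrier LAX1 changed by -1.75 ± 0.27. Without the first dark library 2 transport genes and 4 synthesis genes rose. Without the first lit-shoot library 2 transport genes rose, and without the second 3. Aux/IAA repressors rose in 7 and fell in 8 of 25 tested cases, with IAA31 at 3.29 ± 0.62 and IAA18 at -0.8 ± 0.15. The falls numbered 3 with library totals alone, 2 without the second lit-shoot library and 5 without any other library of the comparison.

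In other hormone lists falls were more numerous than rises in the main fit. Over all loci 29% rose and 30.6% fell, and several of the counts below moved under the alternatives. KAO2, of gibberellin synthesis, had 9.36 and 7.48 CPM with lit shoots, against 27.6 and 27.6 CPM in the dark (log2 fold change -1.71 ± 0.16, edgeR adjusted p = 6.6e-05). The gibberellin receptor gene GID1A changed by -1.15 ± 0.15, and GA3OX2, of the last activating step, rose by 4.78 ± 0.68. In all, 3 of 24 gibberellin genes rose and 9 fell. For brassinosteroids 4 of 20 rose and 8 fell, with the receptor gene BRI1 at 139 and 131 CPM, against 312 and 268 CPM in the dark. BR6OX1, which makes active brassinosteroid, rose by 1.58 ± 0.33. With library totals alone 7 brassinosteroid genes rose and 5 fell, and without the second lit-shoot library 5 fell. ACS5, an ethylene synthesis enzyme, rose against most of its list, at 11.3 and 12.9 CPM, against 0.0418 and 0.746 CPM in the dark (4.95 ± 0.64). Of 24 tested ethylene genes 13 fell, 6 of them at least 2-fold, and 3 rose. Falls among them numbered 7 with library totals alone, and 8 and 6 without the first and second lit-shoot library. The strigolactone receptor gene D14 changed by -0.98 ± 0.18 and MAX2, the F-box protein of strigolactone and karrikin signalling, by -0.94 ± 0.15. Of 13 strigolactone and karrikin genes 3 rose and 6 fell, of which 3 fell with library totals alone or without 1 of the dark libraries or the first lit-shoot library, and 2 without the second.

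Of 9 tested camalexin and indole genes 6 rose and 1 fell (median 2.11). CYP79B3, a P450 that makes indole-3-acetaldoxime from tryptophan, had 151 and 144 CPM with lit shoots, against 3.55 and 5.4 CPM in the dark (log2 fold change 5.04 ± 0.41, edgeR adjusted p = 0.00011). CYP79B2, its close copy, had 167 and 199 CPM, against 4.6 and 11.2 CPM in the dark. WRKY33, the factor known to activate camalexin genes, had 161 and 169 CPM, against 746 and 519 CPM in the dark (-1.94 ± 0.29, edgeR adjusted p = 0.00094). The dark libraries differed in this list by a median log2 ratio of -0.64 (library 1 over library 2), a gap whose part in the result was not tested.

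Of 11 tested triterpene cluster genes 6 rose and 1 fell (median 1.55). THAH, a thalianol hydroxylase, had 176 and 165 CPM with lit shoots, against 12.2 and 34.2 CPM in the dark (log2 fold change 2.88 ± 0.48, edgeR adjusted p = 0.0025). The dark libraries differed by a median log2 ratio of -1.22 (library 1 over library 2) in this list, and both stayed below the lit-shoot libraries for THAH. PEN1, an oxidosqualene cyclase of another cluster, had 42.2 and 43.5 CPM, against 91.2 and 90.7 CPM in the dark. Of 20 tested salicylic acid and immune genes 4 rose and 9 fell. ICS2, an isochorismate synthase, had 12.8 and 11.3 CPM, against 0.669 and 1.01 CPM in the dark (3.84 ± 0.31), while NPR3, a salicylic acid receptor, had 87.8 and 80 CPM, against 344 and 284 CPM in the dark (-1.9 ± 0.14).

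**Figure D3:**
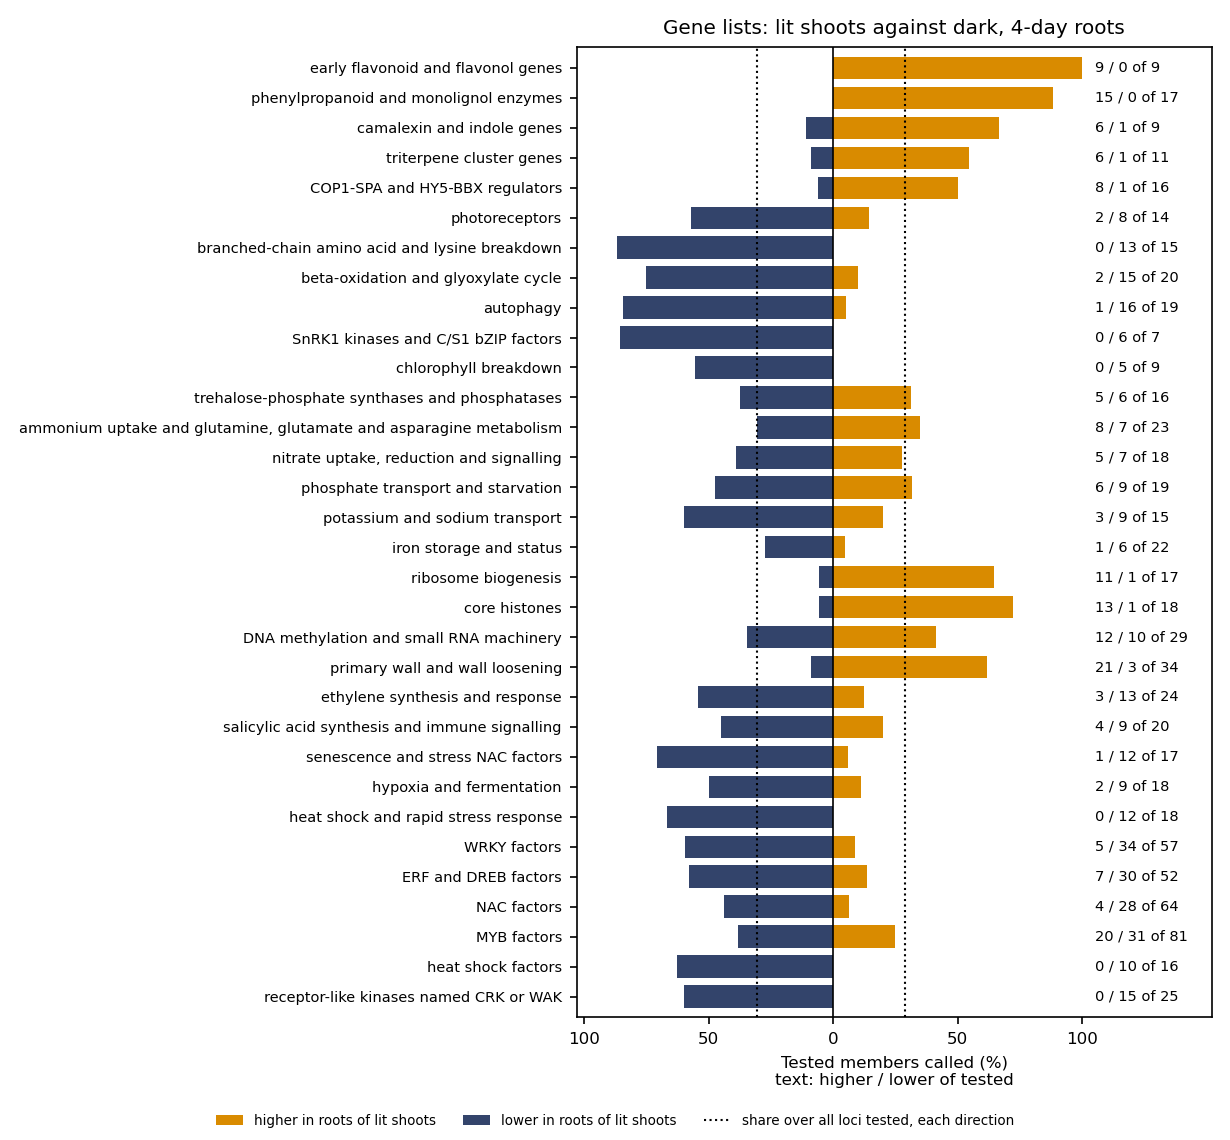
Share of tested members called higher (right) or lower (left) in roots of lit shoots, in percent, for 32 gene lists and families; the text gives higher / lower of tested, and dotted lines mark the shares over all loci, 29% higher and 30.6% lower. Flavonoid, phenylpropanoid, histone and ribosome biogenesis bars point right, and amino acid breakdown, autophagy, WRKY and NAC bars point left.

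In 3 transcription factor families with many stress-related members more genes fell than rose. Of 57 tested WRKY genes 34 fell and 5 rose (median -0.85), of 52 ERF and DREB genes 30 fell and 7 rose (-0.85), and of 64 NAC genes 28 fell and 4 rose (-0.58). With library totals alone 9 NAC genes rose. WRKY59 had no count with lit shoots and 4.14 and 2.06 CPM in the dark, at least 63.6-fold lower. ERF13, an ethylene response factor, had 1.8 and 0.668 CPM with lit shoots, against 43.6 and 27.3 CPM in the dark (log2 fold change -4.83 ± 0.43, edgeR adjusted p = 0.0001). RAP2.11, a factor of the low-potassium response, rose against its family, at 16.3 and 16.3 CPM, against 0.209 and 1.27 CPM in the dark. Of the 17 NAC factors tied to senescence and stress 12 fell and 1 rose (median -0.98). NAP, a NAC factor known from leaf senescence, had 0.515 and 0.468 CPM, against 76.8 and 63.6 CPM in the dark (-7.14 ± 0.3, edgeR adjusted p = 6.8e-06). NAC3 (AT3G15500) had 4.44 and 2.44 CPM, against 59.7 and 48.3 CPM in the dark, whereas NAC042, a longevity factor, rose by 1.56 ± 0.3. The MYB family had 20 rises and 31 falls of 81, and held MYB12 beside MYB108 (-5.34 ± 0.61), a stress-induced member.

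**Figure D4:**
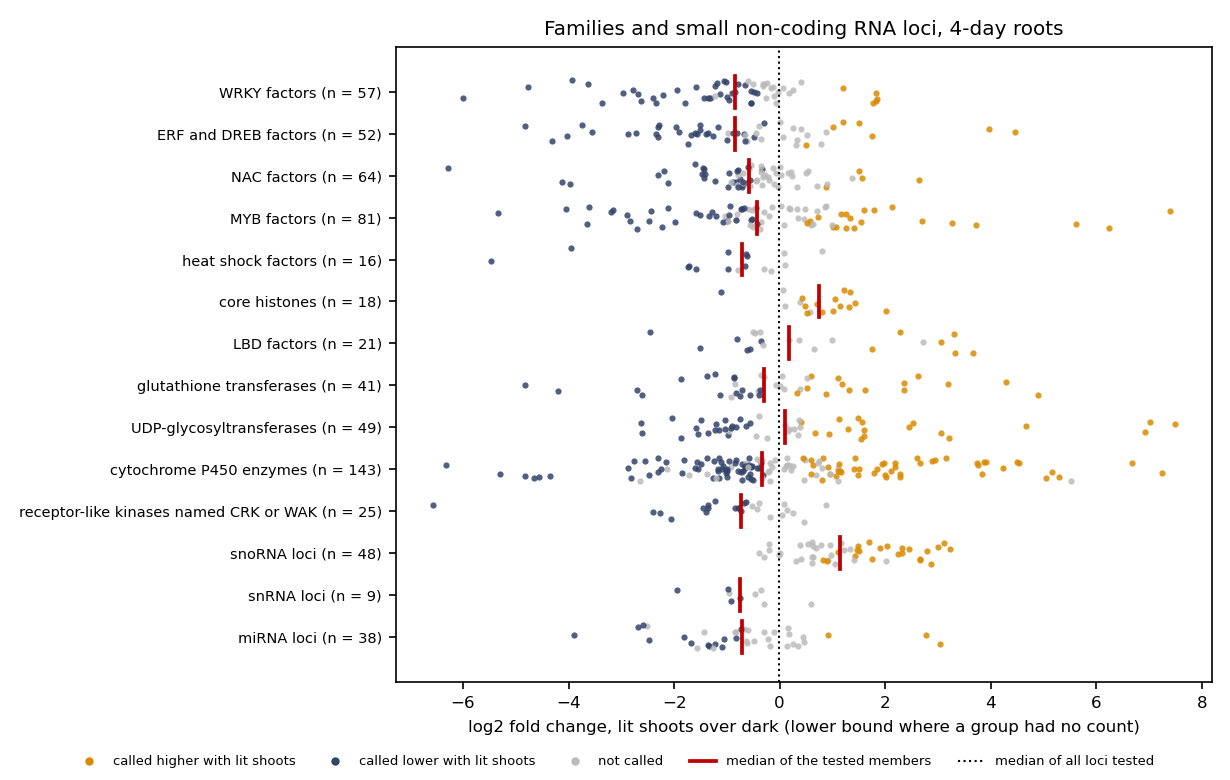
Log2 fold change (lit shoots over dark) of each tested member of 11 gene families and 3 classes of small non-coding RNA loci, with a red bar at the median and a dotted line at the median of all loci; a locus with no count in a group is drawn at its lower bound. The medians of WRKY, ERF and DREB, NAC and heat shock factors sit left of the line, and those of core histones and snoRNA loci sit right of it.

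Most rapid stress genes fell too, and here the dark libraries differed. Of 18 tested heat shock and rapid stress genes 12 fell and none rose (median -2.03), and 6 fell without the second lit-shoot library. The list summed to 594 and 511 CPM with lit shoots, against 3560 and 1530 CPM in the dark. WRKY40, a fast-responding defence factor, had 37.1 and 27.4 CPM with lit shoots, against 490 and 313 CPM in the dark (log2 fold change -3.64 ± 0.59, edgeR adjusted p = 0.0023). HSP70, a heat shock chaperone, had 142 and 131 CPM, against 763 and 126 CPM in the dark, so that only dark library 1 was high, and it was not called (edgeR adjusted p = 0.092). Without dark library 2, HSP70 passed edgeR's test across all loci (adjusted p = 0.00041). HSFA2, the heat stress factor that drives chaperone genes, had 1.32 and 0.167 CPM, against 59.9 and 6.54 CPM in the dark (edgeR adjusted p = 0.011), a call that ended without the second lit-shoot library, without a count filter or in a fit of the 4 libraries alone (adjusted p = 0.055, 0.053 and 0.11). Of 16 tested heat shock factors 10 fell, or 5 without that library.

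Of 18 hypoxia and fermentation genes 9 fell and 2 rose (median -0.83). LBD41, a hypoxia-induced repressor, had 2.8 and 3.24 CPM with lit shoots, against 16.5 and 16.8 CPM in the dark (log2 fold change -2.46 ± 0.21, edgeR adjusted p = 5.2e-05). ADH1, alcohol dehydrogenase of fermentation, had 3.02 and 2.77 CPM, against 21.3 and 11.1 CPM in the dark. SUS4, a sucrose synthase of the same response, had 10.8 and 10.7 CPM, against 2.55 and 2.94 CPM in the dark, so members of the list moved in opposite directions. At the cell surface, 15 of 25 tested receptor-like kinases named CRK or WAK fell and none rose. WAK1, a wall-associated kinase that binds pectin, had 0.0643 and 0 CPM, against 3.39 and 3.64 CPM in the dark, a ratio of dark over lit with a 95% counting interval of 29.2 to 892.

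Of 41 tested glutathione transferases 14 rose and 16 fell, or 10 without the second lit-shoot library. GSTU11 had 2.93 and 3.54 CPM with lit shoots, against 66.6 and 51.8 CPM in the dark (log2 fold change -4.19 ± 0.25, edgeR adjusted p = 2.2e-05). ATGSTF13 had 3.22 and 3.41 CPM, against 0.209 and 0 CPM in the dark. Both belong to the family that couples glutathione to small molecules. Of 143 cytochrome P450 genes 46 rose and 59 fell (median -0.33). Beside both families, 29% of all loci rose and 30.6% fell. Of 21 tested LBD factors 6 rose and 6 fell, of 9 TCP factors 1 rose and 2 fell, and of 23 CLE and RGF peptide genes 3 rose and 9 fell. Those LBD falls numbered 2 with library totals alone or without either lit-shoot library, LBD rises 3 with a minimum of 50 counts, and CLE and RGF falls 5 without the first lit-shoot library. Of 5 tested coumarin genes 3 rose and 1 fell. The rises of F6'H1, which makes the coumarin scopoletin's precursor, and CYP82C4, a P450 of the same pathway, were not stable. F6'H1 had 111 and 129 CPM with lit shoots, against 25.7 and 45.5 CPM in the dark (edgeR adjusted p = 0.021), and its call ended without the first dark library (0.096), the second lit-shoot library (0.063) or either 7-day lit-shoot library (0.054 and 0.052), and without a count filter (0.077). CYP82C4 had 1.29 and 6.65 CPM, against 0.0418 and 0 CPM in the dark (edgeR adjusted p = 0.043), and its call ended without the second lit-shoot library or either dark library (0.14 each), without either 7-day dark library (0.064 each) and without a count filter (0.13). The gene that fell, PDR9, an exporter of phenolics, had 1060 and 998 CPM with lit shoots, against 2400 and 2320 CPM in the dark. BGLU42, a beta-glucosidase that frees coumarins, had 18.3 and 21.4 CPM, against 9.28 and 8.78 CPM in the dark. Greening factors and plastid polymerases rose in 1 and fell in 1 of 9 tested cases, and alternative respiration genes rose in 2 and fell in 2 of 8.

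MicroRNA loci, counted here as their longer precursor transcripts, fell in 13 and rose in 3 of 38 tested cases (median -0.71). Falls numbered 6 without the second lit-shoot library and 8 without either dark library, and 6 with a minimum of 50 counts. MIR163 had 47.3 and 45.7 CPM with lit shoots, against 6.65 and 4.7 CPM in the dark (log2 fold change 3.03 ± 0.41, edgeR adjusted p = 0.00073). MIR156c, a precursor of the microRNA that delays phase change by limiting SPL factors, had 4.57 and 2.14 CPM, against 22.7 and 14.5 CPM in the dark (-2.47 ± 0.48). MIR156d, of the same family, changed by -3.9 ± 0.41, but lies inside another locus, so its reads cannot be assigned with certainty. These 3 loci were named after their values were seen. Of 38 such loci 7 lie inside another locus, MIR156d among them. Long non-coding RNA loci fell in 60 and rose in 7 of 153 cases (median -0.51), with 38 falls without the second lit-shoot library and 15 rises with library totals alone. Pseudogenes fell in 67 and rose in 28 of 160 cases.

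The effect of lit shoots was then set against the same effect in 7-day roots, in other libraries of the same fit. Of the 12136 loci called at 4 days, 10323 were called in the same direction at 7 days, 129 in the opposite direction, and 1684 were not called. In a test of the difference between the effects 2186 of the 4-day calls differed, and in 1701 of these the effect was larger at 7 days. Over all loci tested it called 3006 of 20372 (14.8%). That count rests on few libraries: it was 838 and 1081 without the first and second lit-shoot library at 4 days, 1849 without the second dark library at 4 days and 1551 without the first dark library at 7 days. ICL fell further at 7 days, at a log2 fold change of -8.12 (difference -4.17, edgeR adjusted p = 0.004). CMT3 rose further, at 3.61 (difference 1.95, edgeR adjusted p = 0.00084). NIA1, not called at 4 days, stood at 2.85 at 7 days (difference 2.8, edgeR adjusted p = 0.0012). KEA3 rose less at 7 days, at 2.77 (difference -1.23, edgeR adjusted p = 0.019). None of the early flavonoid genes differed between the days by this test. Few dark counts stood behind these genes at 4 days, so it could miss a difference. F3H had a log2 fold change of 10.29 at 4 days and 7.17 at 7 days (difference -3.12, edgeR adjusted p = 0.12).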

How the data were processed

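Root RNA-seq libraries from 2 biological samples per group (lit shoots and dark, at 4 and 7 days) were compared as read counts per locus. The deposited counts were made by the authors, per the submitters' processing notes with Subread, TopHat2, Trim Galore, FastQC and CASAVA 1.8.2 among the tools and TAIR10 as the build; how strand and multiply mapped reads were counted is not given in the sources used here. Groups were taken from the labels. Loci with at least 10 counts in 2 of the 4 libraries were tested with edgeR 4.0.16 in R 4.3.3 (TMM factors, robust quasi-likelihood fit on all 8 libraries, Benjamini-Hochberg adjustment over 20372 loci, threshold 0.05), and the same fit tested the difference between days. The script was tested on simulated data, in which false calls were more frequent than the threshold allows and part of the 2-fold changes were missed. Replicate numbers did not pair the samples (correlation of replicate differences 0.097). Symbols, coordinates and sequences came from RefSeq TAIR10.1, in which 32835 of 33602 loci were found.

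The 45 gene lists and 13 families were chosen with earlier results of these data known, and 40 of 897 list entries matched no locus in the table. Genes named come from a rule that gave 242, of which the text prints part: the 8 loci with the largest gain and the 8 with the largest loss in CPM, and, in each list or family, called members with the largest changes in either direction and, in lists, the most abundant member not called. Intervals and floors (3 counts over a group, 95% exact) cover counting error only. Alternatives were other scalings, filters and designs, DESeq2 1.42.0, and leaving out each library.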

Additional observations from a re-analysis of the deposited data

Results flagged for a closer look

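The effect of lit shoots on root transcripts differed between 7-day and 4-day roots in 3006 of 20372 loci, by the interaction term of edgeR's fit to all 8 libraries. This result is listed because the same contrast gave different effects at the 2 ages.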

How the results depend on the processing

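Across all loci, the call totals and the number of rises stayed within 1.5 times their values of 12136 and 5907 under every alternative run. The number of falls, 6229, was 4019 with library totals alone, and with libraries left out in turn it ranged between 3865 (without the second lit-shoot library) and 6143. The number of loci whose effect differed between 7 and 4 days, 3006, ranged between 838 and 2923 when libraries were left out. With library totals alone, 66.4% of calls were rises and the median log2 fold change was 0.26. DESeq2 called 11493 loci. With the replicate number as a block 12040 loci were called (5857 rises and 6183 falls) and 3026 differed between days; the numbers give no pairing of the samples. Of 242 named genes, 186 kept their call and direction under every alternative, 56 did not, and none changed direction. Counts of snoRNA, snRNA, microRNA and long non-coding loci were added after seeing the data.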
